A study of Mus musculus with 6 samples.

Results

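The 10 genes described here encode 9 apolipoproteins (Apoa1, Apoa2, Apoa4, Apoa5, Apob, Apoc1, Apoc3, Apoe and Apom) and Mttp, the microsomal triglyceride transfer protein. They were taken by symbol, and each matched 1 of the 56847 Ensembl gene IDs in the deposited tables. All 10 passed the filter on low counts, which left 14215 genes. The study compared livers of mice on a normal diet (3 libraries) with livers of mice on CDAHFD (3 libraries), a high-fat diet without choline and with defined amino acids that brings on steatohepatitis. Its design text names lipid metabolism as one of the processes of interest. The labels give no strain, genotype, sex, age or time on the diet. Nor do they tie the libraries to separate mice, and the p-values therefore reflect the spread among these 6 libraries, which may be technical in part.

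Apolipoproteins are the protein part of lipoproteins, the particles in which the liver sends triglyceride and cholesterol into blood. Apolipoprotein B is the structural scaffold of very-low-density lipoprotein (VLDL), and the Mttp protein loads lipid onto it as it enters the endoplasmic reticulum. Apolipoproteins A1 and A2 are the main proteins of high-density lipoprotein (HDL), and the smaller, exchangeable apolipoproteins govern lipases and receptors. Choline is needed for phosphatidylcholine, the coat lipid of VLDL, and a lack of it is known to lower VLDL secretion. Apoa1, Apoc3, Apoa4 and Apoa5 lie next to each other in 1 gene cluster, and Apoe and Apoc1 in another.

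The 250 bases before the RefSeq start are shown for 3 genes of the first cluster, because Apoa4 and its neighbours changed unequally, and for Mttp, the member with the largest fall. Sequences are from RefSeq's table for build GRCm38.p6, which holds 8 of the 10 members (not Apoc1 and Apoc3), whereas the counts were made on GRCm39. Apoa5 has 2 listed starts, and the window before the upstream one is shown. Capitals mark matches to 5 motifs searched on both strands: an HNF4 site, spelled CAAAGTCCA; the core of nuclear receptor sites, spelled AGGTCA; the core of the cyclic AMP response element, spelled TGACG; the E-box bound by factors of carbohydrate and sterol response, spelled CACGTG; and the TATA box, spelled TATAAA.
Apoa4, chr9:46240594-46240843, plus strand: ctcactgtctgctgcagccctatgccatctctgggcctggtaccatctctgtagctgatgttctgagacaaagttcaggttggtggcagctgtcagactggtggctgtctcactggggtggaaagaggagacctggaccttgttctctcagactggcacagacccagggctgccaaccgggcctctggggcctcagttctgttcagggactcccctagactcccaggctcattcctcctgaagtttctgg
Apoa1, chr9:46228380-46228629, plus strand: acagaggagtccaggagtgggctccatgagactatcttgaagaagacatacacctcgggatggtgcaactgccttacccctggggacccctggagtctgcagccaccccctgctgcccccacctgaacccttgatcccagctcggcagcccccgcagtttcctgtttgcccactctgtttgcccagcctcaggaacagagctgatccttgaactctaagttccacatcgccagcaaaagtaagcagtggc
Apoa5, chr9:46268358-46268607, plus strand: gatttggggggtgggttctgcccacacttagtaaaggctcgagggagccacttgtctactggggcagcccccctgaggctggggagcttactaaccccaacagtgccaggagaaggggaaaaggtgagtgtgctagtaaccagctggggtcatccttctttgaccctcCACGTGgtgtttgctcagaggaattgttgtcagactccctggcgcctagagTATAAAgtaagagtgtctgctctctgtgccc
Mttp, chr3:138143419-138143668, minus strand: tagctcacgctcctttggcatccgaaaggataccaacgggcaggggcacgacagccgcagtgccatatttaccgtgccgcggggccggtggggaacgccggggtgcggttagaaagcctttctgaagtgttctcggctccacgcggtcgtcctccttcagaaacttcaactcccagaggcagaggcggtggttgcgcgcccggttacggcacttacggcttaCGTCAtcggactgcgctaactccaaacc

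The windows of Apoa4 and Apoa1 held no match to any of the 5 motifs. That of Apoa5 held CACGTG from 82 to 77 bases and TATAAA from 31 to 26 bases before the start. That of Mttp held TGACG on the other strand, from 28 to 24 bases before the start. Among the windows of the same length at all 32851 starts in the table, 6.02% held CACGTG, 12.4% TATAAA, 17.8% TGACG, 14.0% AGGTCA and 0.384% CAAAGTCCA. A match is a run of letters and not evidence of binding, and a window without one says only that these letters are not in it.

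On CDAHFD, Apoa4 RNA was 14.4-fold higher and Mttp RNA 2.07-fold lower, while no other member moved by more than 1.68-fold. By edgeR's quasi-likelihood test with TMM scaling, 1 member rose (Apoa4), 6 fell (Mttp, Apoa2, Apoc1, Apoc3, Apom and Apob) and 3 did not pass (Apoa1, Apoe and Apoa5). The 7 of 10 called compare with 52.1% of all genes tested, the 6 lower with 23.5%, and the 1 higher with 28.5%. The groups did not overlap for 5 of the 10 (1 higher and 4 lower), against 60.6% of all genes (32.2% higher and 28.4% lower). By TPM they did not overlap for 5 members too, but 3 were higher (Apoa4, Apoa5 and Apoe) and 2 lower (Apoa2 and Mttp), against 60.5% of all genes (51.8% higher and 8.74% lower). In bulk liver, fewer cells of a type cannot be told apart from less RNA per cell. The median log2 change of the members was -0.42, and that of all genes 0.013. Each change below is a log2 fold change, CDAHFD over normal diet, and its standard error, from 3 libraries of each diet. Levels are CPM, a gene's count relative to the TMM-scaled total of its library, given for replicates 1, 2 and 3, and the p-values are adjusted over all genes tested.

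**Figure D1:**
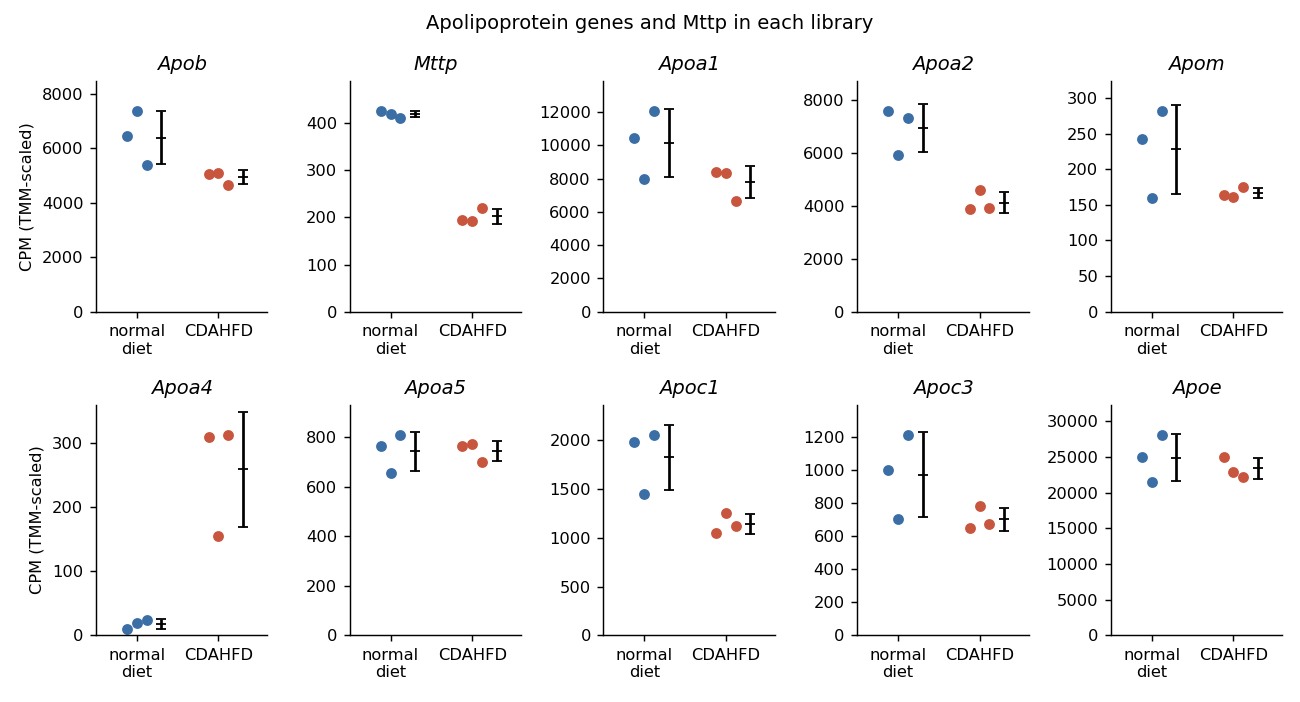
TMM-scaled CPM of the 10 genes (linear axes from 0) in 3 normal diet libraries (blue) and 3 CDAHFD libraries (red), in replicate order, with the mean and SD beside each group in black. The CDAHFD values of Apoa4 lie far above and those of Mttp far below the normal diet values, and those of Apoa1, Apoa5, Apoc3, Apoe and Apom overlap with them.

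How libraries are scaled bears on every small change here. TMM factors were 0.877 to 0.907 on normal diet and 1.09 to 1.14 on CDAHFD. With total counts alone the median gene moved to 0.34, and higher genes made up 84.5% of calls instead of 54.8%. Summed hepatocyte marker counts (20 genes, Alb and other plasma proteins) took 15.5% to 16.7% of a normal diet library and 15.6% to 16.3% of a CDAHFD library, so scaling to them gave nearly the values of total counts, with a median gene also at 0.34 and 85.3% of calls higher. With total counts 2 members were higher (Apoa4 and Apoa5, against 44.0% of all genes) and 3 lower (Mttp, Apoa2 and Apoc1, against 8.07%), and the same numbers held with the hepatocyte markers, against 42.6% and 7.34% (50.0% in either direction). On log2(TPM + 1), where a pseudocount of 1 is added to the deposited TPM and limma is used, 2 were higher and 1 (Mttp) lower, against 45.4% and 6.31% (51.7% in either direction). The members' median minus that of all genes was -0.43 with each of TMM, total counts and the hepatocyte markers. A change of scaling shifts all genes by nearly the same amount, so these values had to be nearly equal. On log2(TPM + 1) the difference was -0.31.

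**Figure D2:**
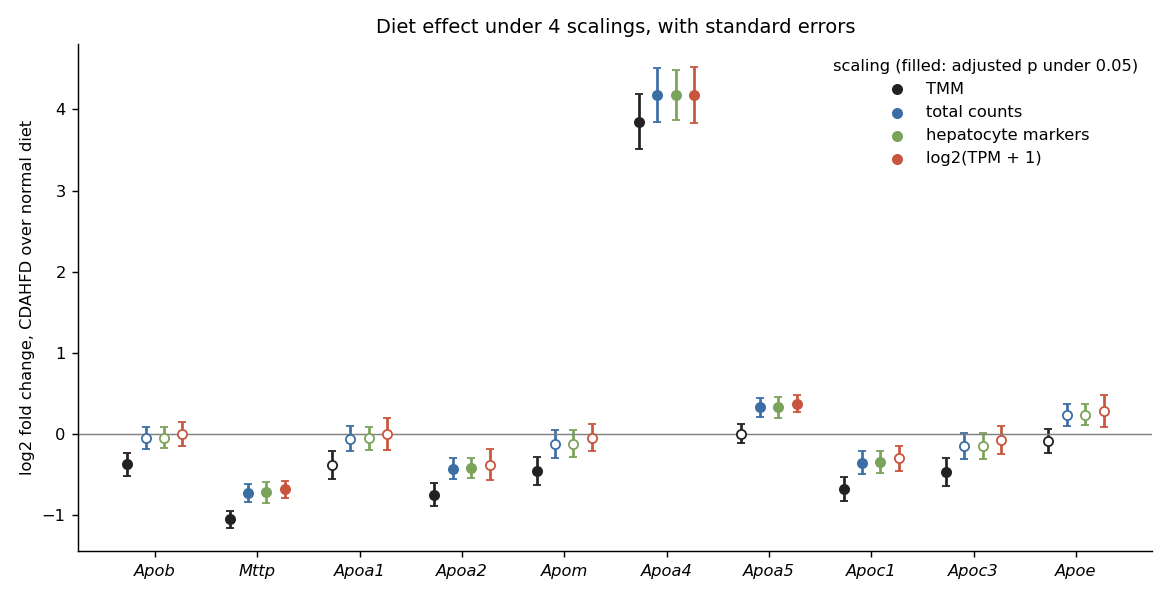
Log2 fold change of each member, CDAHFD over normal diet, under 4 scalings, with standard errors as bars; filled points passed an adjusted p of 0.05. Apoa4 is high and Mttp low under all 4, Apoa2 and Apoc1 pass under 3, and Apob, Apoc3 and Apom are filled with TMM alone.

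Of the pair at the core of VLDL assembly, Mttp had the largest fall of the members and Apob the smallest of those that passed. Mttp had 425, 420 and 411 CPM on normal diet and 193, 192 and 221 CPM on CDAHFD. Each CDAHFD library thus held about the same low level, and the groups stood apart with a gap far wider than the spread within them. The change was -1.05 ± 0.11 (adjusted p = 1.13e-05 by edgeR), and 3.29% of the genes tested had a lower value. It kept its direction and passed under every alternative tried, at -0.73 with total counts and -0.68 on log2(TPM + 1). Trmt10a, on the opposite strand, overlaps Mttp and had 64 to 113 reads per library.

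Apob, which encodes the scaffold that Mttp lipidates, moved little. It had 6430, 7360 and 5382 CPM on normal diet and 5068, 5101 and 4650 CPM on CDAHFD. The highest CDAHFD library lay just under the lowest normal diet library. The change of -0.37 ± 0.14 passed narrowly with TMM (edgeR adjusted p = 0.0447) but was -0.05 with total counts (adjusted p = 0.778) and 0.0048 on log2(TPM + 1). It no longer passed without normal diet replicate 1 (-0.38, adjusted p = 0.0999) or 2 (-0.27, 0.138) or CDAHFD replicate 1 (-0.42, 0.0738) or 3 (-0.36, 0.0963). Within a library the TPM of Mttp was 14.8%, 12.8% and 17.2% of that of Apob in the normal diet libraries and 8.56%, 8.45% and 10.7% in those of CDAHFD, a log2 difference of -0.69 ± 0.16 that no scaling of libraries can alter.

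The HDL genes parted. Apoa2, whose product is the second protein of HDL, had 7581, 5909 and 7316 CPM on normal diet and 3876, 4584 and 3908 CPM on CDAHFD. All CDAHFD libraries were below all normal diet libraries, and the change was -0.75 ± 0.14 (edgeR adjusted p = 0.00103). It passed with total counts (-0.43, adjusted p = 0.0129) and not on log2(TPM + 1) (-0.38, adjusted p = 0.125).

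Apoa1, the main HDL protein and the activator of the cholesterol-esterifying enzyme LCAT, had 10426, 7986 and 12066 CPM on normal diet and 8409, 8317 and 6676 CPM on CDAHFD. Normal diet replicate 2 lay among the CDAHFD values, so the groups overlapped. The change of -0.38 ± 0.17 did not pass (edgeR adjusted p = 0.0798). It passed without normal diet replicate 2 (-0.54, adjusted p = 0.0180), without a low-count filter (0.0116) and by DESeq2 (0.0260), and was -0.06 with total counts.

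Apom, a lipocalin that carries sphingosine 1-phosphate on HDL, had 243, 160 and 281 CPM on normal diet and 164, 161 and 175 CPM on CDAHFD. Normal diet replicate 2 was the lowest of the 6 libraries, just under the CDAHFD values. The change was -0.45 ± 0.17 (edgeR adjusted p = 0.0460) and held without only 1 of the 6 libraries, normal diet replicate 2 (-0.66, adjusted p = 0.000929). Without each other library in turn its adjusted p was 0.0690 to 0.163, with the smallest change, -0.28, without normal diet replicate 3. With total counts the change was -0.12 (adjusted p = 0.556).

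Among the exchangeable apolipoproteins of triglyceride-rich particles, Apoa4 stood by itself. Its protein, best known from intestinal chylomicrons, is also made by the mouse liver in fatty states. Apoa4 had 9.92, 19.8 and 24.1 CPM on normal diet, from 202, 404 and 482 reads, and 309, 155 and 313 CPM on CDAHFD, from 7626, 4344 and 8019 reads. CDAHFD replicate 2 was well below the other two, yet lay far above all normal diet libraries. The change was 3.85 ± 0.33 (edgeR adjusted p = 3.56e-06), the 181st largest rise of 14215 genes. Leaving out 1 library moved it between 3.55 (without normal diet replicate 1) and 4.11 (without normal diet replicate 3). Opposite-strand gene models overlap Apoa4, and the most counted of them had at most 44 reads in any library.

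Apoa5, an activator of lipoprotein lipase that lies in the same cluster, had 765, 658 and 811 CPM on normal diet and 764, 775 and 699 CPM on CDAHFD. The groups overlapped and the change was 0.0032 ± 0.12 (edgeR adjusted p = 0.985). Its sign depended on the setting, and it passed as higher with total counts (0.33, adjusted p = 0.0294), with the hepatocyte markers (0.33, adjusted p = 0.0374) and on log2(TPM + 1) (0.37, adjusted p = 0.0143).

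Apoc3, an inhibitor of lipoprotein lipase and of remnant uptake, had 999, 706 and 1212 CPM on normal diet and 651, 782 and 672 CPM on CDAHFD. CDAHFD replicate 2 was above normal diet replicate 2, so the groups overlapped. The change of -0.47 ± 0.18 (edgeR adjusted p = 0.0412) was lost without normal diet replicate 1 (-0.46, adjusted p = 0.0941) or 3 (-0.29, 0.152) and without CDAHFD replicate 1 (-0.45, 0.106) or 3 (-0.48, 0.0978), and was -0.15 with total counts (adjusted p = 0.477).

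Apoc1, which inhibits the clearance of lipoprotein remnants by receptors, had 1982, 1447 and 2058 CPM on normal diet and 1051, 1252 and 1125 CPM on CDAHFD. No CDAHFD library reached the lowest normal diet library. Its change of -0.68 ± 0.15 passed (edgeR adjusted p = 0.00264), also with total counts (-0.35, adjusted p = 0.0469) but not on log2(TPM + 1) (-0.30, adjusted p = 0.136), and without any 1 library it stayed between -0.83 and -0.60.

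Apoe, the ligand of the LDL receptor family for remnant uptake, is made by hepatocytes and by macrophages. It had 24965, 21542 and 28083 CPM on normal diet and 25010, 22946 and 22155 CPM on CDAHFD, the highest counts of the 10 genes. The groups overlapped, and the change was -0.09 ± 0.15 (edgeR adjusted p = 0.639), or 0.24 with total counts (adjusted p = 0.155) and 0.28 on log2(TPM + 1) (adjusted p = 0.259). Macrophage markers moved over the same comparison: 9 of 12 rose and 0 fell with TMM, beside 28.5% and 23.5% of all genes. Their summed TPM was 487 to 647 on normal diet and 2750 to 2943 on CDAHFD. Adgre1 rose by 1.55 ± 0.14 and Cd68 by 3.12 ± 0.17, and none of the 12 was at 0. The 3 that did not pass were Clec4f (-0.29 ± 0.19), Timd4 (-0.56 ± 0.30) and Vsig4 (0.12 ± 0.17). The part of macrophages in the level of Apoe was not tested.

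Within the normal diet group several members varied together. Normal diet replicate 2 was the lowest of the 3 libraries for 7 members (Apoa1, Apoa2, Apoa5, Apoc1, Apoc3, Apoe and Apom) and the highest for Apob. Normal diet replicate 3 was the highest for 7 (Apoa1, Apoa4, Apoa5, Apoc1, Apoc3, Apoe and Apom) and the lowest for Apob and Mttp. The same 7 were lowest in replicate 2 by TPM, which does not use TMM. The coefficient of variation was larger on normal diet than on CDAHFD for 9 of the 10 members, for Apom at 27.3% against 4.45% and for Apoc3 at 26.2% against 10.1%. Mttp was the exception, at 1.64% against 8.05%. The share of all genes with these patterns was not counted, so they are not read as particular to the members.

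Per unit of gene length, 3 genes dominated. TPM, which divides by length and lets genes be compared, put Apoa2 first on normal diet (31179 ± 2676 TPM, mean ± SD, n = 3) and Apoe second (28087 ± 2665). On CDAHFD the order was turned, with Apoe at 34130 ± 2338 TPM and Apoa2 at 23929 ± 1634 TPM. The TPM ranges of the diets did not overlap for either gene, as for 60.5% of all genes (51.8% higher and 8.74% lower). Neither passed on log2(TPM + 1) (limma adjusted p = 0.259 for Apoe and 0.125 for Apoa2). Apoa1 held place 3 in all 6 libraries, at 19807 ± 3256 and 19672 ± 2128 TPM, which do not differ beyond their spread. Apoc1 (5925 and 4790 TPM), Apoc3 (2307 and 2156), Apob (1116 and 1106) and Apoa5 (713 and 923) kept places 4 to 7 in every library. At the low end Apoa4 went from 24.03 ± 9.82 TPM, the lowest of the 10, to 448 ± 165 TPM, above Mttp (164 ± 8.50 and 102 ± 10.8 TPM) and near Apom (541 ± 128 and 515 ± 37.0 TPM). In CDAHFD replicates 1 and 3 Apoa4 lay within the range of Apom over the 6 libraries, and in replicate 2 it lay below it.

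The 9 apolipoprotein genes together took 7.97% to 9.79% of all TPM on normal diet and 8.38% to 9.05% on CDAHFD, which overlap. Within this pool the shares of some genes differed. The share of Apoe was 30.0%, 32.4% and 31.7% in the normal diet libraries and 40.7%, 36.5% and 39.6% in those of CDAHFD. That of Apoa2 was 36.3%, 35.3% and 32.8% in the normal diet libraries and 25.1%, 29.1% and 27.8% in those of CDAHFD. Apoc1 went from 6.59% ± 0.310 to 5.47% ± 0.487, Apoa5 from 0.797% ± 0.0348 to 1.05% ± 0.00615, and Apoa4 from 0.0270% ± 0.0113 to 0.514% ± 0.195 (SD, n = 3). These 5 of the 9 genes had shares that did not overlap between the diets. The TPM of 60.5% of all genes did not overlap either, so this count is not read as particular to the members. Shares of 1 pool are also tied, since a larger share of 1 gene lowers those of the others. The shares of Apoa1, Apob, Apoc3 and Apom overlapped.

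**Figure D3:**
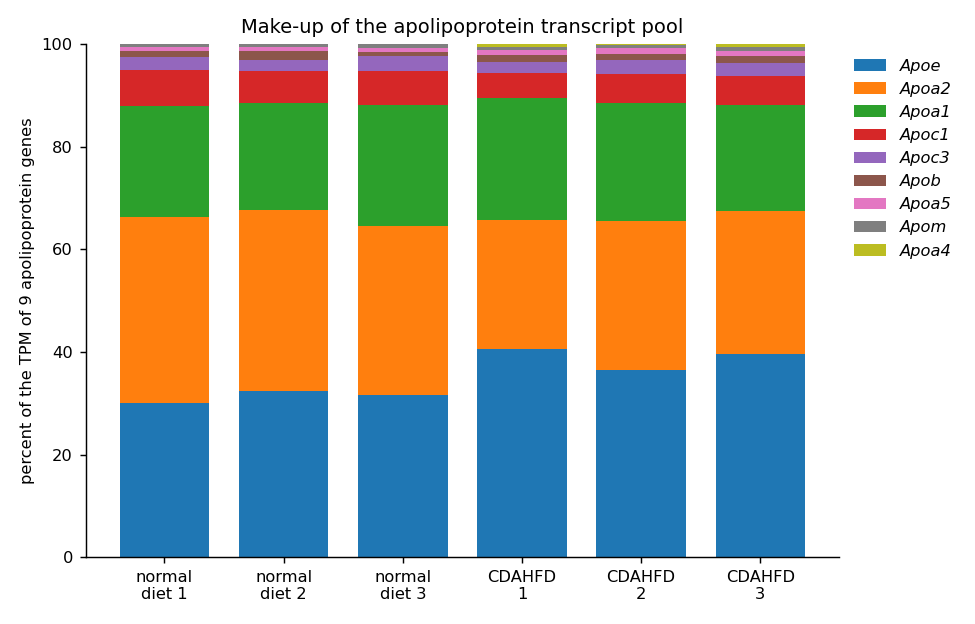
Stacked bars from 0 of each gene's percent of the TPM summed over 9 apolipoprotein genes, 1 bar per library. The Apoe part is 30.0% to 32.4% on normal diet and 36.5% to 40.7% on CDAHFD, and the Apoa2 part shrinks from 32.8% to 36.3% down to 25.1% to 29.1%.

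Ratios between members within a library are free of the scaling between libraries, and 11 pairs were compared with a two-sided exact permutation test, which cannot go below p = 0.1 with 3 against 3. The groups did not overlap for 9 pairs, each at that smallest exact p (0.122 adjusted over the 11 pairs), so none could pass. Many pairs share a gene and are not separate results. By TPM, 60.5% of single genes did not overlap, and the share of other gene pairs was not counted. In the cluster of Apoa1, the TPM of Apoa4 was 0.0648%, 0.169% and 0.136% of that of Apoa1 on normal diet and 2.50%, 1.27% and 3.19% on CDAHFD, a log2 difference of 4.25 ± 0.58. Against its neighbours Apoc3 and Apoa5 the difference was 4.32 ± 0.60 and 3.87 ± 0.54. Apoa5 was higher relative to Apoa1 (0.38 ± 0.11) and to Apoc3 (0.45 ± 0.16), whereas Apoc3 relative to Apoa1 differed by -0.07 ± 0.13 (exact p = 0.7), with overlapping groups.

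In the cluster of Apoe, the TPM of Apoc1 was 22.8%, 19.3% and 21.1% of that of Apoe on normal diet and 12.1%, 15.7% and 14.6% on CDAHFD, a log2 difference of -0.58 ± 0.13. Relative to Apoa1, Apoa2 was lower (-0.38 ± 0.14) and Apoe higher (0.29 ± 0.10), and Apom differed by -0.04 ± 0.16 (exact p = 0.8).

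**Figure D4:**
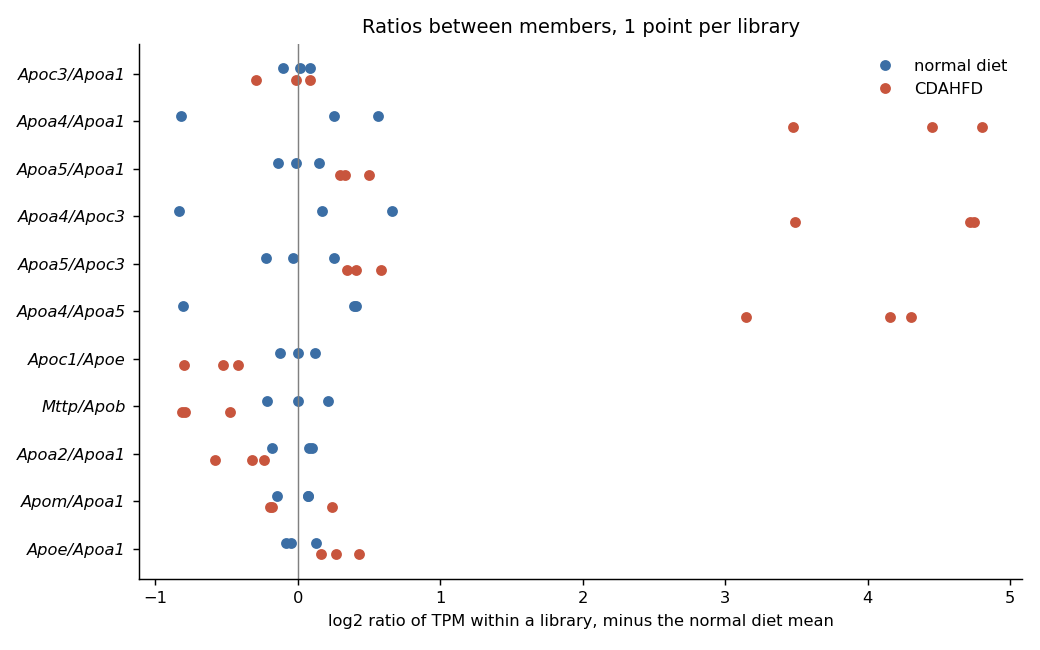
Log2 ratio of the TPM of 2 members in the same library, minus the mean of the normal diet libraries, 1 point per library (blue normal diet, red CDAHFD), for 11 pairs. The 3 pairs with Apoa4 lie 3.87 to 4.32 higher on CDAHFD, and only Apoc3/Apoa1 and Apom/Apoa1 have overlapping points.

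Apoa4 is also an enterocyte gene, and markers of that cell type were read beside it. Of 10 enterocyte markers, Sis, Alpi and Cdx2 were at 0 in every library, and Lct, Cdx1 and Mep1a had at most 1 read in any library. Vil1 had 1 to 3 reads on normal diet and 7 to 24 on CDAHFD. Fabp2 had 745, 1081 and 748 reads in the normal diet libraries and 1513, 1550 and 1408 in those of CDAHFD. It rose by 0.43 ± 0.14, a call lost without normal diet replicate 1 (0.33, adjusted p = 0.115) or 3 (0.34, 0.0788) or CDAHFD replicate 1 (0.35, 0.0941). Slc5a1 and Treh rose as well, by 1.66 ± 0.31 and 1.41 ± 0.24, and the summed TPM of the list was 92.2 to 143 on normal diet and 181 to 209 on CDAHFD. The 3 genes with log2 CPM most like Apoa4 over the 6 libraries, among 8053 genes with a mean of at least 10 CPM, were Fam3c, Unc5b and Synpo (Pearson r = 0.999, 0.999 and 0.997). Pearson r takes no account of the size of a change. These 3 genes rose by 0.36 ± 0.10, 1.95 ± 0.17 and 2.24 ± 0.17, against 3.85 ± 0.33 for Apoa4. The points of each correlation share their libraries and fall into 2 diets, and 743 genes had r above 0.95.

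Of the 16 other apolipoprotein genes and Apob editing factors, 15 were tested (Apod had at most 3 reads in any library), 4 rose and 4 fell, with a median of -0.19. These counts are near the shares of all genes, 28.5% higher and 23.5% lower. With total counts 5 were higher and 2 lower, where 44.0% and 8.07% of all genes were. The acute phase apolipoproteins Saa2 and Saa1 rose by 4.51 ± 0.44 and 3.61 ± 0.43, though these close paralogs may share reads. Clu, an extracellular chaperone found on HDL, rose by 0.47 ± 0.12, and Apoh, a phospholipid-binding plasma protein, fell by 0.72 ± 0.12 from 2334 to 1413 CPM. Apobec1, the cytidine deaminase that edits Apob mRNA to its short form, rose by 1.34 ± 0.18, from 19.8 to 50.3 CPM (edgeR adjusted p = 0.000103). A1cf, a partner of that enzyme that was singled out after its values were seen, fell by 1.12 ± 0.15. Editing itself cannot be read from gene counts. Apoc2 had 1.75 CPM on normal diet and 1.87 on CDAHFD, a level that is uncertain because a read-through gene model on the same strand spans Apoc2 and Apoc4, and that model had 0 reads.

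Of the 20 genes of VLDL assembly and export, 7 fell and 2 rose with TMM, with a median of -0.12, beside 23.5% lower and 28.5% higher among all genes. Sar1b, the small GTPase of the vesicles that carry VLDL out of the endoplasmic reticulum, fell by 1.00 ± 0.11 from 211 to 105 CPM (edgeR adjusted p = 2.30e-05), close to the change of Mttp. Mia3 and Mia2, receptors for large cargo at the exit sites, changed by -0.67 ± 0.15 and -0.58 ± 0.16, and the chaperone gene Pdia3 by -0.39 ± 0.12. These 3 no longer passed with total counts, at -0.35, -0.26 and -0.06. P4hb, which encodes protein disulfide isomerase, the subunit that Mttp needs to be active, rose by 0.47 ± 0.11, opposite to Mttp. With total counts 6 genes of this list were higher and 1 lower (Sar1b, at -0.68), beside 44.0% higher and 8.07% lower among all genes.

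Of the 16 genes of HDL lipidation and plasma remodelling, 8 fell and 3 rose with TMM, with a median of -0.37. Among all genes 23.5% were lower and 28.5% higher. The HDL antioxidant gene Pon1 fell by 1.07 ± 0.14 and Lcat by 0.60 ± 0.11. The cholesterol exporter gene Abcg1 rose by 1.80 ± 0.12 from 9.04 to 31.5 CPM, and Lpl by 2.75 ± 0.19. Both are expressed in macrophages, whose markers rose as given above, and the part of those cells was not tested. With total counts 4 genes were higher and 5 lower, beside 44.0% and 8.07% of all genes. Lcat was -0.28 and still passed there, and no longer passed with the hepatocyte markers (-0.27, adjusted p = 0.0807).

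Of the 16 receptor and uptake genes, 8 rose and 1 fell with TMM, with a median of 0.42, beside 28.5% higher and 23.5% lower among all genes. The sorting receptor gene Sorl1 rose by 3.08 ± 0.19, Cd36, a fatty acid translocase, by 2.27 ± 0.23, the scavenger receptor gene Msr1 by 1.31 ± 0.13 and Lsr, a receptor for triglyceride-rich lipoproteins, by 0.77 ± 0.19. Lrp1, the hepatic remnant receptor that binds Apoe, had the highest CPM of the list and did not pass (-0.06 ± 0.11, or 0.26 with total counts). With total counts 10 genes were higher and 0 lower, beside 44.0% and 8.07% of all genes. Msr1 and Cd36 are also macrophage genes, and macrophage markers rose over the same comparison (summed TPM 487 to 647 on normal diet and 2750 to 2943 on CDAHFD); their part in the counts of this list was not tested.

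Among 20 genes of transcription factors and coactivators known to act on apolipoprotein genes, 14 fell and 2 rose with TMM, with a median of -0.55. Of all genes tested, 23.5% were lower and 28.5% higher. Nr1h4, the bile acid receptor, fell by 1.08 ± 0.13 from 199 to 94.2 CPM, Mlxipl, a carbohydrate-sensing factor, by 0.73 ± 0.13 and the forkhead factor Foxa3 by 0.72 ± 0.16. Hnf4a, a general activator of apolipoprotein genes, changed by -0.59 ± 0.11, and Creb3l3, which is known to activate Apoa4, by -0.43 ± 0.12. With total counts Hnf4a was -0.26 (edgeR adjusted p = 0.0655) and Creb3l3 -0.10 (adjusted p = 0.497). There 5 genes of the list were lower and 3 higher, beside 8.07% and 44.0% of all genes. The hepatocyte markers had a median of -0.44 with TMM, with Alb at -0.47 ± 0.15 and Ttr at -0.67 ± 0.15. With TMM 14 of 20 were lower and 1 higher, with total counts 8 and 3, and on log2(TPM + 1) 4 and 3. The shares of all genes with TMM and total counts are those just given, and on log2(TPM + 1) 6.31% were lower and 45.4% higher. Alb no longer passed without normal diet replicate 1 (-0.41, adjusted p = 0.0870) or CDAHFD replicates 1 (-0.52, 0.0647) or 3 (-0.45, 0.0680). The medians of the members and of the hepatocyte markers were close, -0.42 and -0.44. With total counts both shifted much as all genes did, the hepatocyte marker median to -0.12 and that of the members to -0.09.

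**Figure D5:**
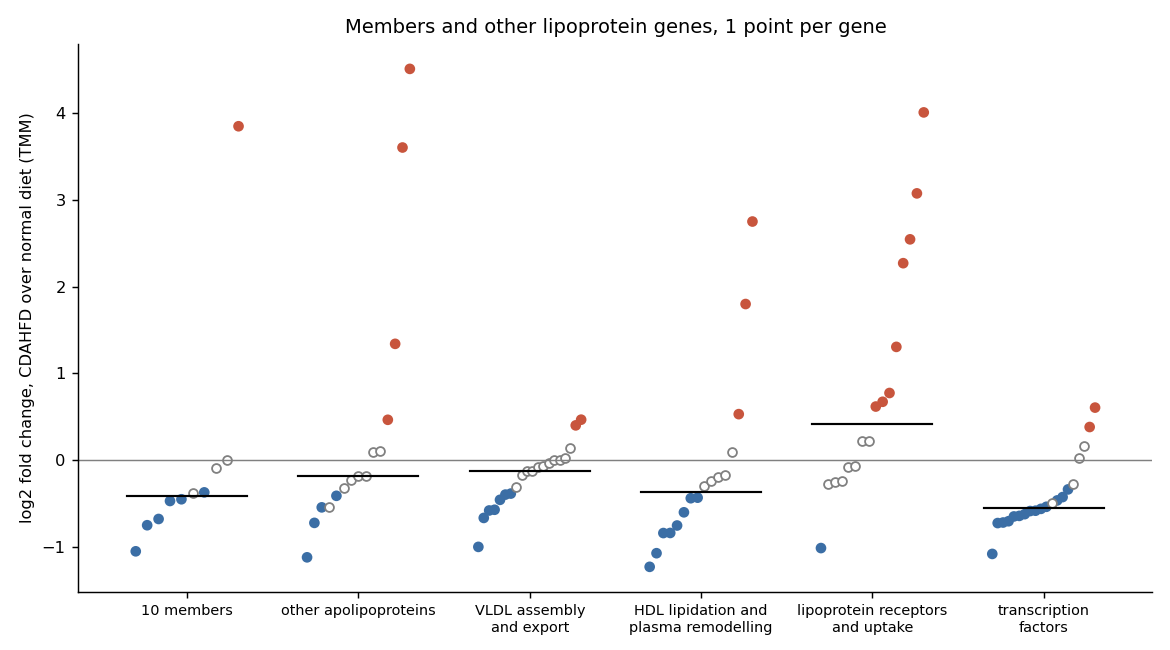
Log2 fold change with TMM, CDAHFD over normal diet, of the 10 members and of the tested genes of 5 lists, 1 point per gene in order of its change. Red points passed as higher and blue as lower, open points did not pass, and bars are medians, from -0.55 for the transcription factors to 0.42 for the receptors.

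Total counts were 21986215 to 25628531 per library, and 19085 to 21761 genes were counted at least once. With TMM, 10 of 10 stellate cell and fibroblast markers and 5 of 5 tested cholangiocyte markers were higher on CDAHFD. So were 5 of 8 lymphocyte markers and 2 of 2 tested neutrophil markers. Of 9 endothelial markers only 2 were higher, with a list median of 0.10, where 28.5% of all genes were higher. In each list 0 were lower, where 23.5% of all genes were. The summed TPM was 107 to 129 against 609 to 741 for stellate cells and fibroblasts, 38.4 to 42.4 against 283 to 370 for cholangiocytes, 4.801 to 7.26 against 17.96 to 28.8 for lymphocytes, 2.30 to 2.99 against 28.9 to 61.5 for neutrophils, and 210 to 246 against 289 to 330 for endothelial cells. Spp1 is in both the cholangiocyte and the macrophage list, so these lists are not separate. The most counted cholangiocyte gene reached 4718 reads in a library, beside list sums of 3873, 5248 and 5182 reads on CDAHFD. Krt19 and Krt7 of that list rose by 2.31 ± 0.39 and 2.01 ± 0.32. The part of these cell types in the levels of the members was not tested.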

How the data were processed

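The 6 mouse liver libraries were made with a stranded mRNA kit from total RNA, per the labels' protocols. Per the submitters' processing notes, the tools and builds were STAR 2.7.11a and GRCm39; how and on which strand reads were counted is not stated in the material used. The authors deposited raw read counts per Ensembl gene and TPM. Each deposited TPM equals the count over a fixed length per gene, rescaled to the library. Columns beginning CD were read as CDAHFD and those beginning ND as normal diet. Symbols were matched for 51911 of the 56847 gene IDs.

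Low counts were filtered with filterByExpr (minimum count 10), which left 14215 genes. The model, with diet as its only term, was a quasi-likelihood fit by edgeR 4.0.16 (R 4.3.3) on TMM-scaled counts, with Benjamini-Hochberg adjustment and a threshold of 0.05. Its standard errors are the size of the change over the root of F; those of ratios come from the spread between libraries. The alternatives were other scalings and filters, DESeq2 1.42.0, limma 3.58.1 (voom, and log2 TPM with pseudocounts of 1 and 0.1), a replicate block and leaving out each library. On simulated counts for 14215 genes, of which 13964 were tested, the fit recovered 80 of the 100 genes given a 2-fold change and 35 of the 100 given 1.5-fold, with 13 false among 128 calls. The smallest count of a member in any library was 202. Libraries of the same diet differed by a chi-square per degree of freedom of 19.4 to 41.8, so none is a copy of another.

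The members and lists were chosen with earlier results of these data known, and the promoter motifs after the files were seen. The text names all members. From each pathway list it names up to 3 passing genes by size of change (mean CPM of 1 or more) and the 2 highest by TPM; from a cell type list, the first 2 markers where a result turns on them; and the 3 genes most like the member that changed most. Outside this rule fall Apod, Apoc2, A1cf, Spp1, Clec4f, Timd4, Vsig4 and the enterocyte markers other than Fabp2 and Sis. These were picked after their values were seen. A gene that the rule names is not reported here.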

Additional observations from a re-analysis of the deposited data

How the results depend on the processing

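Apoa4 and Mttp kept their direction and passed under all 17 alternatives to the edgeR fit, and Apoa2 and Apoc1 under 15. With total counts, Apob was -0.0493, Apoc3 -0.1473 and Apom -0.1242, none of which passed, Apoa5 passed at 0.3269, and Apoe turned to 0.235. With the hepatocyte markers these values were -0.0452, -0.1453, -0.1181, 0.3309 and 0.2393. On log2(TPM + 1), Apoa2 (-0.3804), Apoc1 (-0.299), Apoc3 (-0.0746) and Apom (-0.0464) did not pass, Apob turned to 0.0048 and Apoe to 0.2831, and Apoa5 passed at 0.3727. A pseudocount of 0.1 gave the same values to 4 decimals, except 0.3732 for Apoa5. Keeping genes with 1 CPM in 3 libraries, Apob (-0.3491), Apoc3 (-0.4488) and Apom (-0.4292) missed the threshold, as did Apoc3 (-0.4411) and Apom (-0.4124) with limma-voom. Apoa1 passed with DESeq2 (-0.4) and without a low-count filter (-0.3812), and Apoa5 was -0.0154 with RLE scaling and DESeq2. The cause of these shifts was not tested. Lrp1 turned to 0.2598 with total counts, 0.2634 with the hepatocyte markers, and 0.2989 and 0.3006 on log2 TPM with the larger and smaller pseudocount.

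Members called higher were 2 with total counts, the hepatocyte markers and log2 TPM, and those called lower were 3 with total counts, the hepatocyte markers and the 1 CPM filter, and 1 on log2 TPM. With total counts, the hepatocyte markers and log2 TPM in turn, the other apolipoproteins had 2, 2 and 2 lower, VLDL assembly 6, 5 and 7 higher and 1, 1 and 1 lower, HDL remodelling 5, 4 and 4 lower, receptors 0, 0 and 0 lower, and transcription factors 5, 4 and 2 lower. Receptors had 2 lower with DESeq2 and 0 with limma-voom, and transcription factors 4 higher with the hepatocyte markers. Over all genes, 6258 were higher and 1147 lower with total counts, 1044 lower with the hepatocyte markers, and 6449 (6433 with the smaller pseudocount) higher and 897 lower on log2 TPM.

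Leaving out 1 library at a time, the log2 change ranged from -0.5376 to -0.2503 for Apoa1, -0.8717 to -0.6921 for Apoa2, 3.55 to 4.1105 for Apoa4, -0.4928 to -0.2677 for Apob, -0.8316 to -0.5966 for Apoc1, -0.666 to -0.2921 for Apoc3, -0.1925 to -0.0042 for Apoe, -0.6618 to -0.2822 for Apom and -1.1524 to -1.0509 for Mttp. For Apoa5 it ranged from -0.0883 (without normal diet replicate 2) to 0.0574, and was -0.0479 and -0.0627 without CDAHFD replicates 1 and 2. Members called lower numbered 3 to 6, other apolipoproteins lower 3 to 6, VLDL assembly genes higher 1 to 2, and receptors lower 0 to 2.

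With the replicate number as a block, Apob (-0.3611, adjusted p = 0.0558) and Apoc3 (-0.4423, 0.0594) no longer passed, and 4 members were lower. Deviations of same-numbered libraries correlated at -0.047, 0.069 and 0.118, so the numbers were not taken as pairs. Shares of counts in place of TPM gave differences of -1.3591 percentage points for Apoa1 (0.4076 by TPM), -3.75 for Apoa2 (-7.5099), 0.2972 for Apoa5 (0.2554) and -1.0803 for Apob (-0.0095). In the simulated data fewer 1.5-fold than 2-fold changes were recovered, and most members changed by less than 2-fold. Only 100 genes were given each size of change there, whereas 52.1% of all genes were called in the data. The simulated rates therefore need not hold for the members.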
